A study of Mus musculus with 9 samples.

Results

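The 10 genes described here are Wnt ligands and genes that release, restrain or report their signal: the ligands Wnt4, Wnt7b and Wnt9a, the ligand-modifying enzyme Porcn, the secreted modulators Dkk2, Dkk3, Sfrp1 and Sfrp2, and the intracellular genes Axin2 and Lef1. They were taken by name from the 47728 genes counted in every library, and all 10 were found. Wnt7b and Dkk3 were picked because their mRNA changed in a knockdown, so their genotype differences are given as values with no test. Earlier results of these data were known when all 10 were chosen, so the tests of the other 8 may not be free of that choice.

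Wnt proteins are lipid-modified signals that cells secrete over short distances. On the receiving cell they bind Frizzled receptors together with the co-receptors Lrp5 and Lrp6, which spares beta-catenin from destruction and lets it act with Lef1 and related factors on target genes. In skeletal muscle, Wnt signals are known for their part in the start of the myogenic programme in the embryo and in repair by muscle stem cells in the adult.

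Polyadenylated mRNA was sequenced from C2C12, an immortal mouse myoblast line that stops dividing and fuses into multinucleated myotubes in low-serum medium. The groups were an Fkbp5 knockdown, an Fkbp4 knockdown and a control, each sampled at days 0, 3 and 5 of differentiation. That makes 9 libraries, 1 for each genotype and day. Fkbp5 and Fkbp4 encode FKBP51 and FKBP52, prolyl isomerases that assist the chaperone Hsp90. All groups were grown in 10% fetal bovine serum and moved at day 0 to medium with 1% insulin-transferrin-selenium. Later changes used a medium that the labels name only as DMEM with HS. The agent used for each knockdown, its clonality and the nature of the control are not given in the sources used here.

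Depth ran from 3932372 to 5568486 counted reads per library, a 1.42-fold range. Values are normalised CPM (reads of a gene scaled to a common library size), and each interval covers counting error only. Each knockdown had less of its own target. Fkbp5 stood at 4.47, 3.18 and 4.61 CPM at days 0, 3 and 5 in the Fkbp5 knockdown, against 20.1, 7.34 and 14.8 CPM in the control (log2 fold change −1.72, SE 0.24, edgeR adjusted p = 0.00825). This call was lost in 4 of 18 alternatives: without the day-5 library of the Fkbp5 knockdown (adjusted p = 0.0536), day 0 (0.0533), day 5 (0.0934) or the day term (1), with the same sign in each. Fkbp4 stood at 60.2, 27.0 and 24.0 CPM in the Fkbp4 knockdown, against 241, 143 and 138 CPM in the control (−2.28, SE 0.12, adjusted p = 1.9e-05), a call that was lost in 1 of 18, with no day term (adjusted p = 0.881). The day-5 library of the Fkbp5 knockdown stood apart, with 10.1% of its reads on mitochondrial genes, against at most 5.01% in the other libraries. Of 6 myoblast markers, Pax7 reached at most 2.63 CPM, and the lowest value of the others was 44.5 CPM (Myf5). Their sum, mostly Des and Itga7, rose with the days: 1956, 5689 and 6934 CPM in the Fkbp5 knockdown, 1886, 6313 and 6642 in the Fkbp4 knockdown, and 1908, 5219 and 6352 in the control. The summed CPM of 8 myotube markers was 83.4, 3635 and 7200 in the Fkbp5 knockdown, 257, 6180 and 12150 in the Fkbp4 knockdown, and 110, 5935 and 11067 in the control. Of 6 adipocyte markers, Adipoq, Plin1 and Cidec had 0 reads in all 9 libraries and Fabp4 reached at most 2.41 CPM, while Pparg reached 13.4 CPM. Lpl, a lipase that muscle also makes, stood at 51.1, 154 and 215 CPM in the Fkbp5 knockdown, 23.7, 43.8 and 57.3 CPM in the Fkbp4 knockdown, and 59.6, 77.9 and 120 CPM in the control. Of 7 osteoblast and chondrocyte markers, Sox9 (55.3 to 82.7 CPM) and Runx2 (23.2 to 44.5 CPM) were detected throughout, Acan had 0 reads, and 5 including Acan stayed under 1 CPM. The endothelial gene Cdh5 also had 0 reads. The immune and endothelial markers summed to at most 4.64 CPM, and the fibroblast gene Thy1 reached at most 0.201 CPM. The 7 genes of the fibroblast list summed to 2380, 5421 and 6285 CPM in the Fkbp5 knockdown, 1498, 3632 and 4234 CPM in the Fkbp4 knockdown, and 1506, 4656 and 5370 CPM in the control. Most of each sum was Col3a1 (1153 to 4278 CPM). Col1a1 stood at 145 to 1124 CPM, Dcn at 11.9 to 795 CPM and Pdgfrb at 36.2 to 168 CPM. Pdgfra reached at most 11.8 CPM, and Lum, a matrix gene on that list, at most 5.08 CPM.

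The sequence just upstream of 3 members is shown because these genes rose or fell with differentiation and because their bases differ in makeup. Each run is the 250 bases before the RefSeq transcription start on the plus strand of GRCm38.p6, 5′ to 3′. Capitals mark CAGCTG, an E-box form preferred by MyoD but not the only one, in Wnt9a, and TATAAA, the TATA box, in Dkk2. The Wnt4 run holds neither of these strings, nor CTTTGA, a form of the TCF/LEF core. Other forms of the E-box and of the TCF/LEF core were not counted. That run ends at 137277634, past the GENCODE start of Wnt4 (137277489). Part of it therefore lies inside the gene as GENCODE places it.
Wnt9a (chr11:59306680-59306929): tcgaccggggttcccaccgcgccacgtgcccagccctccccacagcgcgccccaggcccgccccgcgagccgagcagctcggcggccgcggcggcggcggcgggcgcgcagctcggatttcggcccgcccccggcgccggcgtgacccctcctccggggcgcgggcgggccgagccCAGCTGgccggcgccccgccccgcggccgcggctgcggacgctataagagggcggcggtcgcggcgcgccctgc
Wnt4 (chr4:137277385-137277634): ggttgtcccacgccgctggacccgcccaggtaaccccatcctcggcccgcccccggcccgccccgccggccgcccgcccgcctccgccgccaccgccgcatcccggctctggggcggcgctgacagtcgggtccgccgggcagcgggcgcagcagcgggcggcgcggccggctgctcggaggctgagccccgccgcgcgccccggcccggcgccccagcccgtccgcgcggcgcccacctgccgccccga
Dkk2 (chr3:132085042-132085291): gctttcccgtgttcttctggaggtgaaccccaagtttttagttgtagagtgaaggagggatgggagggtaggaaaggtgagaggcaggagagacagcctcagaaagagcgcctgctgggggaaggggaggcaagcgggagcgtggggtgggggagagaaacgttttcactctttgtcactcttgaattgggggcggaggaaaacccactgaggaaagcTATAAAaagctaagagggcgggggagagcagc
The Wnt9a and Wnt4 runs are 84.4% and 85.2% G or C, with 48 and 44 CG pairs. The Dkk2 run is 55.6% G or C with 7 CG pairs. Over 32851 RefSeq promoter windows the median is 52.4% with 6 CG pairs, and the 95th percentile is 31 CG pairs. On either strand, CAGCTG is found in 13.0% of these windows, TATAAA in 12.4% and CTTTGA in 13.8%. In Wnt9a the E-box begins 74 bases before the start, and in Dkk2 the TATA box begins 32 bases before it. Windows were matched for 6 of the 10 members. Axin2 (69.2% G or C, 24 CG pairs) and Sfrp2 (63.6%, 16 CG pairs) hold none of the 3 strings, and other forms were not counted. Of 4 Lef1 windows, 1 holds CTTTGA at 180 and 120 bases and TATAAA at 231 bases before the start. Another holds CAGCTG at 205 bases. A match describes the letters in the window and not a bound site.

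Most changes that passed a test in these genes came with differentiation. Porcn rose in every genotype from day to day, Wnt4 and Wnt9a were higher at day 5 than at day 0, and Wnt7b and Dkk2 fell steeply between day 0 and day 3 and stayed low. Of the 9 members with enough reads to test, 3 were higher and 2 lower at day 3 than at day 0, which is 55.6% of them, while 52.8% of all 12498 genes tested were called in that comparison (26.7% higher and 26.1% lower). Against day 0, 4 were higher and 2 lower at day 5, or 66.7%, beside 58.3% of all genes (29.5% higher and 28.8% lower). Between days 3 and 5 only Porcn was called, higher at day 5, which is 11.1% of the members beside 6.14% of all genes (3.74% higher). These shares are close to the background, so the count itself sets the members apart from other genes in none of the 3 comparisons. The calls against day 0 include Axin2 (higher) and Wnt7b (lower). Both passed the low-count filter only with libraries where they were high, so these counts are not free of that selection. Day effects are averages over the 3 genotypes, from an edgeR quasi-likelihood fit with genotype and day as terms. A call does not show that every genotype changed. The p-values are adjusted over all genes by Benjamini and Hochberg. In bulk RNA, fewer cells of a kind and less RNA per cell cannot be told apart. The summed myotube markers above rose over the same days, and their part in these changes was not tested.

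**Figure D1:**
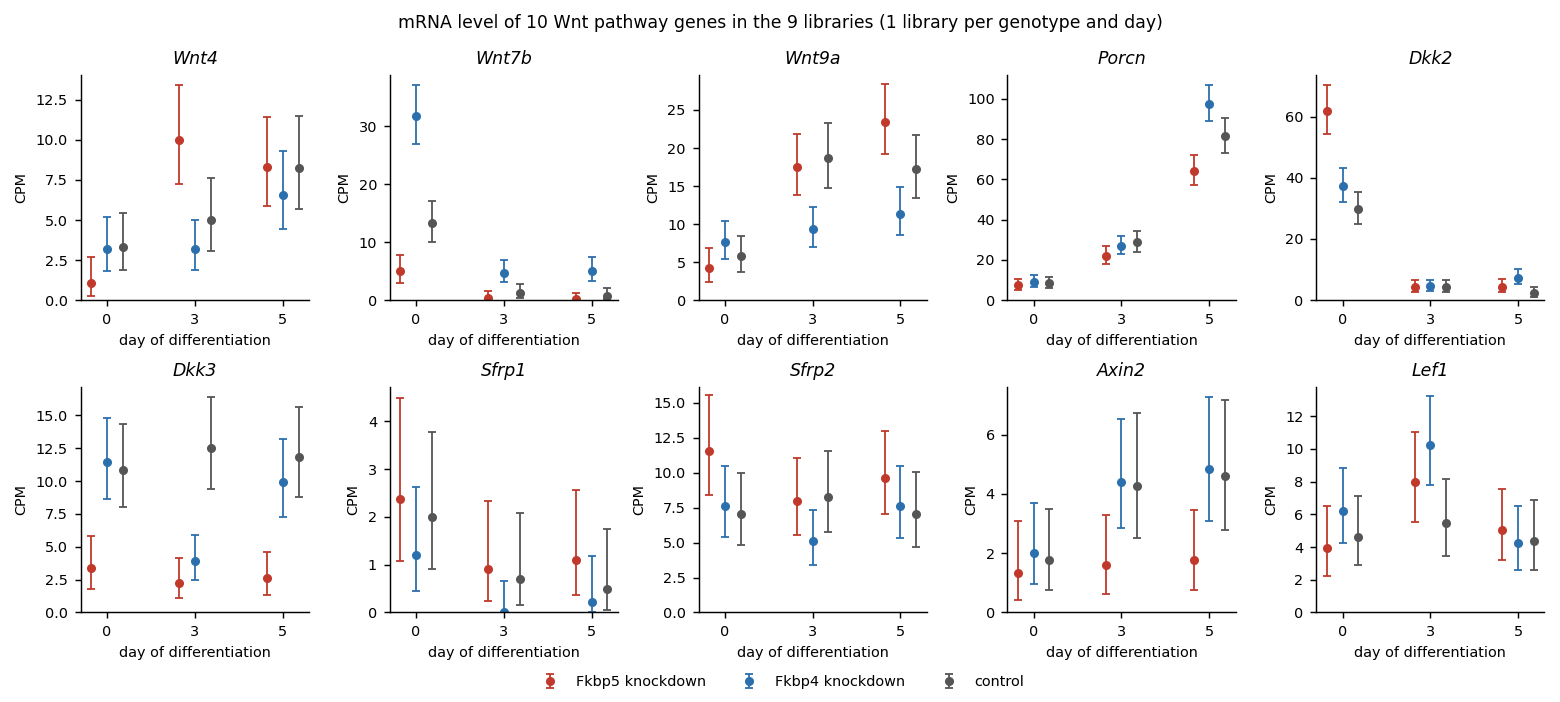
Level of each of the 10 genes in CPM (vertical axis, from 0, own scale per gene) at days 0, 3 and 5 (horizontal axis) in the Fkbp5 knockdown, the Fkbp4 knockdown and the control. Each point is 1 library with its exact Poisson 95% interval. Porcn climbs in every genotype to 64.3, 97.6 and 81.3 CPM at day 5, and Dkk2 drops from its day-0 levels of 61.8, 37.3 and 29.8 CPM.

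Among the ligands, Wnt7b had the widest range. Wnt7b (ENSMUSG00000022382, chr15:85535437-85582473, minus strand, GRCm38) encodes a ligand known from lung and placental development. It stood at 5.00, 0.454 and 0.219 CPM at days 0, 3 and 5 in the Fkbp5 knockdown, from 19, 2 and 1 reads. In the Fkbp4 knockdown it stood at 31.7, 4.77 and 5.06 CPM, from 158, 27 and 24 reads. The control held 13.3, 1.18 and 0.726 CPM, from 60, 5 and 3 reads. The day-0 library was the highest within each genotype, and at each day the Fkbp4 knockdown was highest and the Fkbp5 knockdown lowest. Across the genotypes Wnt7b fell by 3.05 on the log2 scale (8.31-fold, SE 0.31, edgeR adjusted p = 1.86e-05) at day 3 against day 0, and the change at day 5 against day 0 was −3.19 (SE 0.32, adjusted p = 1.21e-05). Both calls held in all 15 alternatives tried, at adjusted p up to 0.0219. Of the libraries of days 3 and 5, only those of the Fkbp4 knockdown held more than 5 reads. Wnt7b thus passed the low-count filter only with day-0 libraries, where it was high. Its day tests are not free of that selection. Day 5 and day 3 did not differ detectably (−0.14, adjusted p = 0.903).

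The genotype differences of Wnt7b are the ones it was picked for and carry no test. Fitted over the 3 days, Wnt7b was 3.18-fold higher in the Fkbp4 knockdown than in the control (log2 1.67) and the Fkbp5 knockdown held less than the control (log2 −1.38). By day, the log2 ratio of the Fkbp4 knockdown over the control was 1.26 (exact 95% interval 0.82 to 1.71) at day 0, 2.01 (0.61 to 3.74) at day 3 and 2.80 (1.08 to 5.18) at day 5. The 3 intervals overlap and cover counting error only. As Wnt7b was picked for this change, they are no test of it. The fitted value was 2.35 without the day-0 library of the Fkbp4 knockdown, 2.23 without the day-0 control library and 2.33 without day 0. The log2 ratio of the Fkbp5 knockdown over the control was −1.41 (−2.23 to −0.64) at day 0. The ratios at days 3 and 5, −1.38 and −1.73, rest on 2 and 1 reads against 5 and 3, and their intervals (−4.77 to 1.23 and −7.44 to 1.91) include 0. The fitted value was −1.26 without the day-5 library of the Fkbp5 knockdown, −1.99 without its day-0 library and −0.76 without the day-0 control library.

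Wnt9a (ENSMUSG00000000126, chr11:59306928-59333552, plus strand), a ligand known from joint and skeletal development, moved the other way with time. It stood at 4.21, 17.5 and 23.5 CPM in the Fkbp5 knockdown (16, 77 and 107 reads). The Fkbp4 knockdown held 7.62, 9.36 and 11.4 CPM (38, 53 and 54 reads), and the control 5.74, 18.7 and 17.2 CPM (26, 79 and 71 reads). Day 0 was the lowest in each genotype, and at days 3 and 5 the Fkbp4 knockdown lay below the other libraries of the same day. Wnt9a rose by log2 1.27 (SE 0.32, edgeR adjusted p = 0.0062) at day 3 and 1.47 (2.78-fold, SE 0.31, adjusted p = 0.00218) at day 5 against day 0. Both calls held in all 15 alternatives, at adjusted p up to 0.0398. Within genotypes, day 5 over day 0 was 5.57-fold in the Fkbp5 knockdown (log2 2.48, interval 1.71 to 3.34), 1.49-fold in the Fkbp4 knockdown (0.58, −0.05 to 1.22) and 2.99-fold in the control (1.58, 0.91 to 2.29).

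Wnt9a passed the test in none of the genotype comparisons: Fkbp5 knockdown against control 0.08 (SE 0.29, edgeR adjusted p = 0.931; −0.22 without the day-5 library of that knockdown), and Fkbp4 knockdown against control −0.46 (SE 0.30, adjusted p = 0.483). Fkbp5 knockdown against Fkbp4 knockdown gave 0.54 (adjusted p = 0.262). The last difference was 0.90 (adjusted p = 0.0387) without the day-0 library of the Fkbp4 knockdown, and 0.98 (adjusted p = 0.032) without day 0. At day 3 the log2 ratio of the Fkbp4 knockdown over the control was −1.0 (−1.53 to −0.48), and at day 5 it was −0.59 (−1.13 to −0.06). At day 0 it was 0.41 (−0.35 to 1.19). An interaction term for this ratio, late days against day 0, gave −1.21 (SE 0.44, adjusted p = 1, from a fit that leaves 2 residual degrees of freedom), which was past the threshold only before adjustment.

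Wnt4 (ENSMUSG00000036856, chr4:137277489-137299726, plus strand) encodes a ligand best known from kidney and female gonad development. It stood at 1.05, 9.99 and 8.33 CPM in the Fkbp5 knockdown (4, 44 and 38 reads). Fkbp4 knockdown cells held 3.21, 3.18 and 6.53 CPM (16, 18 and 31 reads), and the control 3.31, 4.97 and 8.23 CPM (15, 21 and 34 reads). The Fkbp5 knockdown was the lowest genotype at day 0 and the highest at day 3. Wnt4 was higher at day 5 than at day 0 by log2 1.52 (2.86-fold, SE 0.44, edgeR adjusted p = 0.0129), in all 15 alternatives at adjusted p up to 0.0455. At day 3 against day 0 the estimate was 1.12 (SE 0.46, adjusted p = 0.0613). That estimate passed in 3 of 15 alternatives: with no low-count filter (adjusted p = 0.00128), and without the day-0 (0.0313) or day-3 (0.03) library of the Fkbp4 knockdown.

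Wnt4 did not pass the genotype tests, at 0.18 (SE 0.42, edgeR adjusted p = 0.885) for the Fkbp5 knockdown against the control and −0.35 (SE 0.43, adjusted p = 0.73) for the Fkbp4 knockdown against the control. The same-day log2 ratio of the Fkbp5 knockdown over the control had opposite signs at day 0 (−1.65, −3.70 to −0.0039) and day 3 (1.01, 0.23 to 1.83), and at day 5 it was 0.02. The interaction of the Fkbp5 knockdown with the late days was 2.14 (SE 0.90, adjusted p = 0.961). The change of this ratio over the days thus did not pass a test.

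Seen together and per kilobase of exon, the makeup of the ligand mRNA differed between days. The level summed over 19 mouse Wnt ligands was 9.04, 13.6 and 15.4 CPM per kb at days 0, 3 and 5 in the Fkbp5 knockdown. It was 17.5, 10.6 and 15.6 in the Fkbp4 knockdown and 14.6, 15.2 and 19.1 in the control. Wnt7b made up 37.0% of it in the Fkbp4 knockdown at day 0 and 6.63% at day 5. In the Fkbp5 knockdown the Wnt7b share was 11.3% at day 0 and 0.29% at day 5, against control shares of 18.5% and 0.774%. Wnt9a made up 14%, 38.7% and 45.7% in the Fkbp5 knockdown, 13.1%, 26.6% and 22% in the Fkbp4 knockdown, and 11.8%, 36.8% and 27.0% in the control. Wnt10a, which is no member, made up 26.0%, 19.7% and 20.7% in the Fkbp5 knockdown, 22.8%, 35.2% and 34.6% in the Fkbp4 knockdown, and 28.2%, 28.9% and 39.4% in the control. Wnt10b made up 37.7%, 19.2% and 16.3% in the Fkbp5 knockdown, 19.2%, 14.2% and 19.1% in the Fkbp4 knockdown, and 32.5%, 15.5% and 16.7% in the control. Wnt10b was thus the largest ligand in the Fkbp5 knockdown and in the control at day 0. Wnt4, Wnt7b, Wnt9a, Wnt10a and Wnt10b were the 5 ligands with enough reads to test. Of the other 14, Wnt5b reached at most 2.37 CPM and Wnt5a 1.20 CPM, and Wnt2, Wnt3a, Wnt8a, Wnt9b and Wnt16 had 0 reads. Shares rest on 115 to 330 ligand reads per library and have no replicate check.

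**Figure D2:**
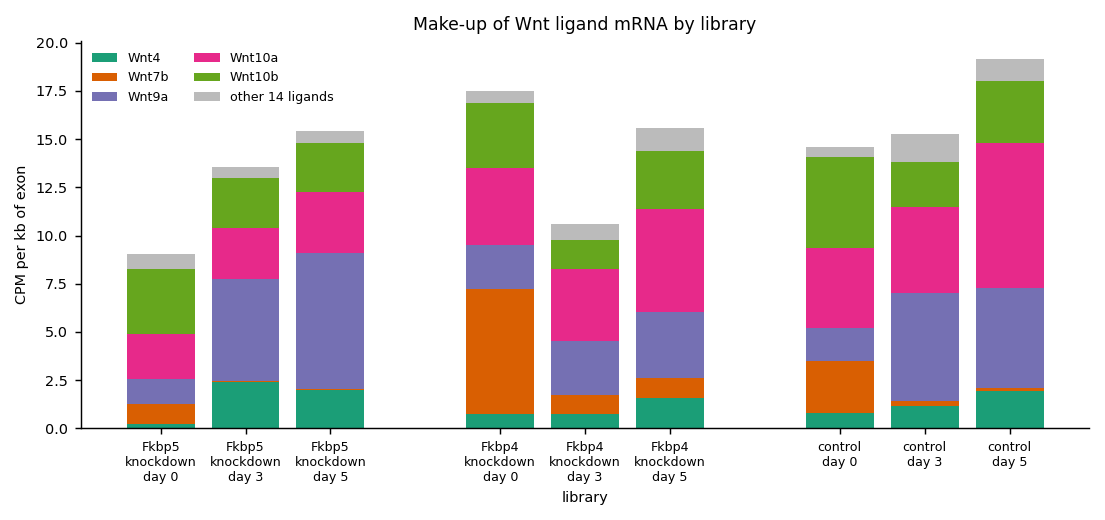
Summed level of Wnt ligand mRNA in CPM per kilobase of exon (vertical axis, from 0) in each of the 9 libraries (horizontal axis), split by ligand. Each bar is 1 library. The Wnt7b segment is largest in the Fkbp4 knockdown at day 0 (37.0% of the bar), and the Wnt9a segment is largest in the Fkbp5 knockdown at day 5 (45.7%).

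Porcn (ENSMUSG00000031169, chrX:8193848-8206525, minus strand) encodes the acyltransferase of the endoplasmic reticulum that adds the lipid Wnt proteins need for release. Its mRNA stood at 7.37, 22 and 64.3 CPM at days 0, 3 and 5 in the Fkbp5 knockdown (28, 97 and 293 reads). The Fkbp4 knockdown held 9.23, 27.0 and 97.6 CPM (46, 153 and 463 reads), and the control 8.39, 28.9 and 81.3 CPM (38, 122 and 336 reads). The 3 days did not overlap across genotypes, and the Fkbp5 knockdown was the lowest at each day. Porcn rose by log2 1.64 (SE 0.14, edgeR adjusted p = 4.67e-06) at day 3 and by 3.27 (9.68-fold, SE 0.13, adjusted p = 2.38e-08) at day 5 against day 0. It rose again by 1.64 (SE 0.11, adjusted p = 9.32e-05) at day 5 against day 3. These calls held in all 15 alternatives, at adjusted p up to 0.0063.

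Between the knockdowns, Porcn was lower in Fkbp5 knockdown cells than in Fkbp4 knockdown cells, by log2 −0.45 (1.36-fold, SE 0.12, edgeR adjusted p = 0.0356), in 3 of 3 days. This call was fragile. It was lost in 9 of 17 alternatives, with adjusted p = 0.147 by DESeq2, 0.0583, 0.0502 and 0.273 without the day-0, day-3 or day-5 library of the Fkbp4 knockdown, 0.0623 without the day-0 control, 0.09 or 0.438 without day 0 or day 5, and 1 with no day term. Leaving out the day-5 library of the Fkbp5 knockdown, the one high in mitochondrial reads, gave −0.37 (adjusted p = 0.233). The summed myotube markers were also lower in Fkbp5 knockdown cells than in Fkbp4 knockdown cells at each day (values above), and their part in this difference was not tested. Against the control, Porcn was at −0.33 (SE 0.12, adjusted p = 0.214) for the Fkbp5 knockdown and 0.11 (SE 0.12, adjusted p = 0.672) in the Fkbp4 knockdown. Wls, the carrier that takes modified Wnts to the cell surface, stood at 602 to 886 CPM and showed no detectable day change (−0.03, adjusted p = 0.811, at day 5 against day 0).

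Dkk2 (ENSMUSG00000028031, chr3:132085292-132180304, plus strand) encodes a secreted protein that binds the co-receptors Lrp5 and Lrp6. It stood at 61.8, 4.31 and 4.39 CPM at days 0, 3 and 5 in the Fkbp5 knockdown (235, 19 and 20 reads). In the Fkbp4 knockdown it stood at 37.3, 4.59 and 7.38 CPM (186, 26 and 35 reads), and in the control at 29.8, 4.26 and 2.42 CPM (135, 18 and 10 reads). Every day-0 library lay far above every later one. Dkk2 fell by 3.25 on the log2 scale (9.54-fold, SE 0.28, edgeR adjusted p = 4.6e-06) at day 3 with −3.15 (SE 0.27, adjusted p = 4.26e-06) at day 5 against day 0. Both calls held in all 15 alternatives. At day 0 the log2 ratio to the control was 1.05 (0.74 to 1.37) in the Fkbp5 knockdown and 0.32 in the Fkbp4 knockdown. At day 3 all genotypes were near 4 CPM, with log2 ratios of 0.02 and 0.11. At day 5 the log2 ratio was 0.86 (−0.30 to 2.12) in the Fkbp5 knockdown and 1.61 (0.56 to 2.79) in the Fkbp4 knockdown, from 20 and 35 reads against 10 in the control. Over the days, the estimate against the control was 0.78 (SE 0.29, adjusted p = 0.21) for the Fkbp5 knockdown and 0.57 (SE 0.29, adjusted p = 0.361) in the Fkbp4 knockdown. The Fkbp5 value passed only with no low-count filter (adjusted p = 0.0155), and it was 0.19 without the day-0 library of that knockdown and 0.94 (adjusted p = 0.257) without its day-5 library.

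Dkk3 (ENSMUSG00000030772, chr7:112116017-112159057, minus strand) encodes a divergent member of the Dickkopf family whose effect on Wnt signals is less settled than that of its relatives. It was the other gene picked for its genotype difference. In the Fkbp5 knockdown it stood at 3.42, 2.27 and 2.63 CPM at days 0, 3 and 5 (13, 10 and 12 reads). Fkbp4 knockdown cells held 11.4, 3.89 and 9.91 CPM (57, 22 and 47 reads), and the control 10.8, 12.5 and 11.9 CPM (49, 53 and 49 reads). The Fkbp5 knockdown was below the control at each day, and the Fkbp4 knockdown was well below it only at day 3. Fitted over the days, the Fkbp5 knockdown held 4.30-fold less Dkk3 than the control (log2 −2.11), with same-day log2 ratios of −1.66 (−2.67 to −0.76), −2.47 (−3.61 to −1.48) and −2.17 (−3.22 to −1.24). Without the day-5 library of the Fkbp5 knockdown it was −2.00.

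In the Fkbp4 knockdown, the same-day log2 ratio of Dkk3 to the control was 0.08 (−0.50 to 0.66) at day 0, −1.69 (−2.48 to −0.95) at day 3 and −0.26 (−0.87 to 0.35) at day 5. The fitted −0.56 therefore rests on day 3. It was −0.14 without the day-3 library of the Fkbp4 knockdown, −0.19 without the day-3 control library and −0.09 without day 3. With time, Dkk3 gave −0.57 (SE 0.33, edgeR adjusted p = 0.167) at day 3 and −0.12 (SE 0.32, adjusted p = 0.772) at day 5 against day 0. Without the day-3 control library the day-3 value was −1.12 (adjusted p = 0.0235).

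The secreted Frizzled-related proteins bind Wnts outside the cell through a domain like that of the receptors. Sfrp2 (ENSMUSG00000027996, chr3:83766321-83774316, plus strand) was the steadiest of the members tested. It stood at 11.6, 7.95 and 9.65 CPM in the Fkbp5 knockdown (44, 35 and 44 reads). The Fkbp4 knockdown held 7.62, 5.12 and 7.59 CPM (38, 29 and 36 reads), and the control 7.07, 8.28 and 7.02 CPM (32, 35 and 29 reads). The whole range was 2.26-fold, and no test passed: −0.30 (SE 0.23, edgeR adjusted p = 0.304) at day 3 and −0.10 (SE 0.23, adjusted p = 0.732) at day 5 against day 0. Fkbp5 knockdown against Fkbp4 knockdown gave 0.52 (SE 0.23, adjusted p = 0.152). Sfrp1 (ENSMUSG00000031548, chr8:23411502-23449632, plus strand) had 39 reads over the 9 libraries and did not pass the filter. It stood at 2.37, 0.908 and 1.10 CPM in the Fkbp5 knockdown (9, 4 and 5 reads), at 1.20, 0 and 0.211 CPM in the Fkbp4 knockdown (6, 0 and 1 reads), and at 1.99, 0.71 and 0.484 CPM in the control (9, 3 and 2 reads). The count of 0, with a floor of 3 reads, allows up to 0.53 CPM. In each genotype the day-0 library was the highest. The Fkbp5 knockdown held more Sfrp1 reads than the Fkbp4 knockdown at each day, and genotype differences of Sfrp1 were not tested.

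Axin2 (ENSMUSG00000000142, chr11:108920349-108950783, plus strand) encodes a scaffold of the complex that destroys beta-catenin, and is itself switched on by beta-catenin in many cell types. Counts were low. It stood at 1.32, 1.59 and 1.75 CPM at days 0, 3 and 5 in the Fkbp5 knockdown (5, 7 and 8 reads). Fkbp4 knockdown cells held 2.01, 4.42 and 4.85 CPM (10, 25 and 23 reads), and the control 1.77, 4.26 and 4.60 CPM (8, 18 and 19 reads). At days 3 and 5 the Fkbp5 knockdown was the lowest, and it changed little from its day-0 level. No Fkbp5 knockdown library and no day-0 library held more than 10 reads. Axin2 thus passed the low-count filter through days 3 and 5 of the Fkbp4 knockdown and the control, where it was high. Its day and genotype tests are not free of that selection. Across genotypes Axin2 rose by log2 0.99 (SE 0.33, edgeR adjusted p = 0.0264) at day 3 and 1.12 (2.17-fold, SE 0.33, adjusted p = 0.0135) at day 5 against day 0.

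The Axin2 day calls were not stable. The day-3 call was lost in 7 of 15 alternatives, at adjusted p = 0.186 by DESeq2, 0.134 and 0.109 without the day-0 or day-3 library of the Fkbp4 knockdown, 0.131 and 0.0906 without those of the control, 0.0508 without day 5 and 0.126 without the genotype term. The day-5 call was lost in 6 of 15, at 0.117 by DESeq2, 0.0829 and 0.0634 without the day-0 or day-5 library of the Fkbp4 knockdown, 0.0818 and 0.0524 without those of the control, and 0.0841 without the genotype term. Without the day-5 library of the Fkbp5 knockdown they were 0.99 (adjusted p = 0.0347) and 1.19 (adjusted p = 0.0227).

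Axin2 too was lower in Fkbp5 knockdown cells than in Fkbp4 knockdown cells, by log2 −1.25 (2.39-fold, SE 0.33, edgeR adjusted p = 0.0324), in 3 of 3 days. Axin2 entered this test through libraries where it was high, and these include no library of the Fkbp5 knockdown. The estimate stayed between −1.48 and −1.12 when a library or day was left out. The call, however, was lost in 11 of 16 alternatives, at adjusted p up to 0.702 (without the day term), among them each day left out (0.064, 0.16 and 0.252) and each library of the Fkbp4 knockdown left out (0.0661, 0.115 and 0.132). It was also lost without the day-0 (0.0503) or day-3 (0.0531) control, or the day-3 (0.0962) or day-5 (−1.12, 0.17) library of the Fkbp5 knockdown. Against the control, Axin2 was at −1.16 (SE 0.34, adjusted p = 0.122) for the Fkbp5 knockdown and 0.09 (SE 0.29, adjusted p = 0.905) in the Fkbp4 knockdown. The same-day log2 ratios of the Fkbp5 knockdown to the control were −0.43, −1.42 (−2.92 to −0.10) and −1.39 (−2.79 to −0.13).

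Lef1 (ENSMUSG00000027985, chr3:131110471-131224356, plus strand), the DNA-binding partner of beta-catenin, was highest at day 3 in each genotype. It stood at 3.95, 7.95 and 5.04 CPM in the Fkbp5 knockdown (15, 35 and 23 reads). The Fkbp4 knockdown held 6.22, 10.2 and 4.22 CPM (31, 58 and 20 reads), and the control 4.64, 5.44 and 4.35 CPM (21, 23 and 18 reads). At day 3 against day 0 the change was log2 0.66 (SE 0.26, edgeR adjusted p = 0.0517), just short of the threshold. It passed in 5 of 15 alternatives, at 0.0495 with other size factors, 0.0484 with limma voom, 0.041 with no low-count filter, 0.0465 without the day-5 library of the Fkbp4 knockdown and 0.0329 without the day-3 control. Day 5 against day 3 gave −0.78 (SE 0.26, adjusted p = 0.106). Against the control it was 0.21 (SE 0.27, adjusted p = 0.776) for the Fkbp5 knockdown and 0.48 (SE 0.26, adjusted p = 0.399) in the Fkbp4 knockdown. The largest same-day log2 ratio was 0.91 (0.19 to 1.68), in the Fkbp4 knockdown at day 3.

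**Figure D3:**
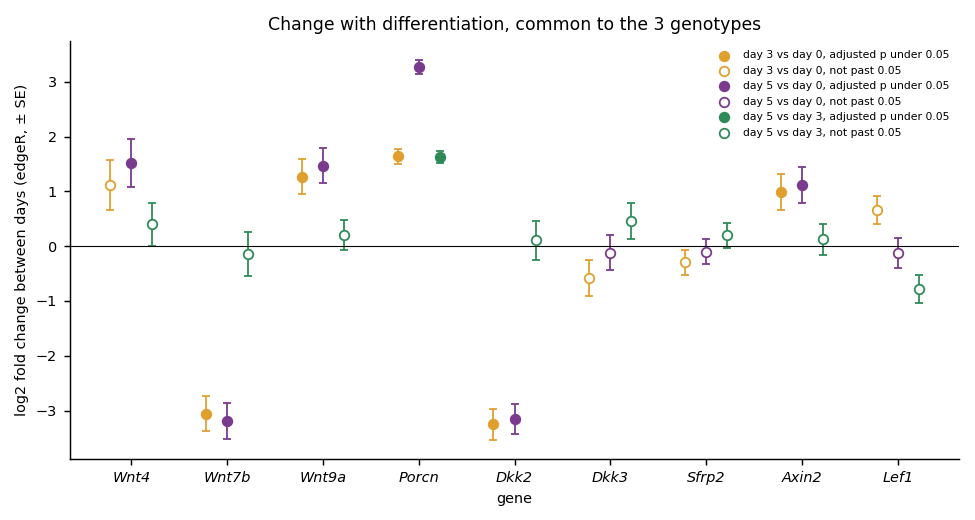
Log2 fold change between days (vertical axis) with its SE for the 9 members tested (horizontal axis), averaged over the 3 genotypes in the edgeR fit. Filled points passed an adjusted p under 0.05 and open points did not. Porcn reaches 3.27 at day 5 against day 0, and Wnt7b and Dkk2 lie near −3 at both later days.

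The genotype tests gave few calls among the 7 members that were not picked on them. For the Fkbp5 knockdown against the control, edgeR's quasi-likelihood test called 0 of 7, DESeq2 0 and limma voom 0, while 3 (Porcn, Dkk2 and Axin2) were under 0.05 before adjustment. In that comparison 2.18% of all 12498 genes were called, and 15.9% were under 0.05 before adjustment. For the Fkbp4 knockdown against the control, edgeR called 0 of 7, with 0 before adjustment, DESeq2 0 and limma voom 0, beside 1.08% of all genes called and 16.5% under 0.05 before adjustment. For the Fkbp5 knockdown against the Fkbp4 knockdown, 2 of 7 were called, both lower (Porcn and Axin2), beside 13.4% of all genes called and 6.21% called lower. Axin2 had passed the filter only through libraries of the Fkbp4 knockdown and the control. By limma voom the count was 2, and by DESeq2 0, where Axin2 received no adjusted p. For the interaction of each knockdown with days 3 and 5, edgeR called 0 of 7 in each interaction, with 1 before adjustment in each (Wnt4 in the Fkbp5 knockdown, Wnt9a in the Fkbp4 knockdown). DESeq2 and limma voom called 0 in each, and 0.032% and 0.04% of all genes were called, with 4.58% and 3.09% under 0.05 before adjustment. Both knockdowns are set against the same 3 control libraries.

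**Figure D4:**
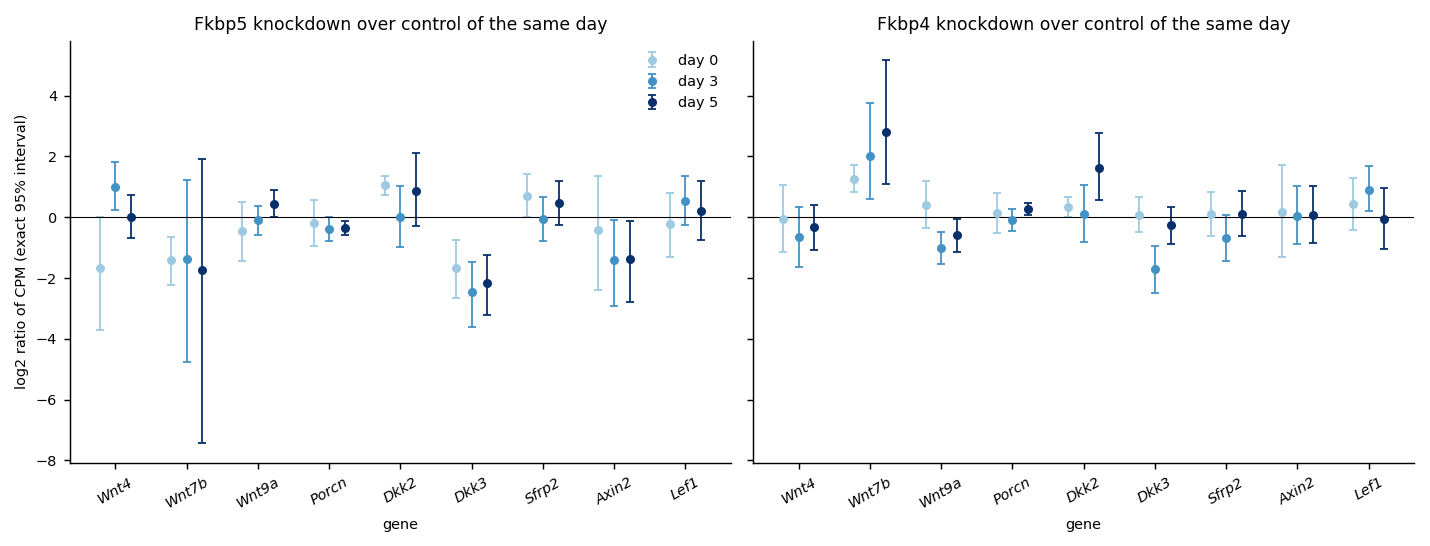
Log2 ratio of CPM in each knockdown over the control library of the same day (vertical axis) for the 9 members tested (horizontal axis), with exact 95% intervals for counting error. Left, Fkbp5 knockdown; right, Fkbp4 knockdown; shades give days 0, 3 and 5. Dkk3 lies below 0 at each day in the Fkbp5 knockdown (−1.66, −2.47 and −2.17), and Wnt7b lies above 0 at each day in the Fkbp4 knockdown (1.26, 2.01 and 2.80). Dkk3 and Wnt7b were picked for their change in a knockdown, so their intervals are no test.

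Ranked by level per kilobase of exon and averaged over the days, Porcn led in every genotype. At day 0 it did not: Dkk2 stood above it in the Fkbp5 knockdown (16.7 against 2.46 CPM per kb), the Fkbp4 knockdown (10.1 against 3.08) and the control (8.05 against 2.80). The Porcn mean over the 3 days was 10.4 CPM per kb (2.46 to 21.4) in the Fkbp5 knockdown, 14.9 (3.08 to 32.5) in the Fkbp4 knockdown and 13.2 (2.80 to 27.1) in the control. In the control, Wnt9a (4.17), Dkk3 (3.50), Sfrp2 (3.46) and Dkk2 (3.28) came next, with overlapping ranges over the days. Wnt4 (1.31) and Wnt7b (1.03) followed, also with overlapping ranges. Axin2 (0.643) and Lef1 (0.548) overlapped too, and Sfrp1 (0.243) came last. In the Fkbp5 knockdown Dkk3 (0.826, 0.676 to 1.02) stood below Wnt4 (1.54, 0.251 to 2.38), with overlapping ranges. Axin2 (0.282) stood last there, and its range overlapped that of Sfrp1 (0.333). In the Fkbp4 knockdown Wnt7b (2.83, 0.974 to 6.47) stood next to Wnt9a (2.84, 2.29 to 3.42) and Sfrp1 (0.108) last. Dkk3 and Wnt7b were picked for their change in a knockdown, so their places are a description with no test.

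The rest of the pathway was described from lists of 103 other Wnt genes, of which 60 had enough reads to test. With differentiation, 25 of 60 were higher and 9 lower at day 3 than at day 0, and 24 were higher and 10 lower at day 5 than at day 0. In each comparison 56.7% of the 60 were called, beside 52.8% and 58.3% of all genes. The share called higher was 41.7% and 40% (all genes, 26.7% and 29.5%), and the share called lower 15% and 16.7% (all genes, 26.1% and 28.8%). The median over the 60 genes was log2 0.19 in each comparison, beside a median within 0.01 of 0 for all genes. Among 12 nuclear partners of beta-catenin, 8 were higher and 2 lower at day 3. Tle3, a co-repressor, stood at 51.6, 160 and 133 CPM in the Fkbp5 knockdown, 72.2, 137 and 131 CPM in the Fkbp4 knockdown, and 55.4, 127 and 141 CPM in the control (log2 1.24 at day 3, SE 0.13, edgeR adjusted p = 2.51e-05). Its relative Tle1 went the other way (−0.88, SE 0.12, adjusted p = 0.000147). In the cytoplasmic relay and destruction complex 8 of 18 were higher and 1 lower at day 3, led by Dvl3, which passes the signal from Frizzled (1.28, SE 0.13, adjusted p = 1.58e-05). Among 17 receptors and co-receptors 6 were higher and 4 lower. Musk, the receptor kinase of the neuromuscular junction, rose by 1.74 (SE 0.15, adjusted p = 5.97e-06), and Lgr6, a receptor for R-spondins, fell by 2.36 (SE 0.29, adjusted p = 5.82e-05). The largest increase among genes with a mean of at least 5 CPM was that of Daam2, a formin of the planar polarity branch (2.35 at day 3 and 2.59 at day 5 against day 0, adjusted p = 2.3e-07 and 8.29e-08).

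Between days 3 and 5, 1 of the 60 genes was higher (Fzd7, a Frizzled receptor, 0.74, SE 0.15, edgeR adjusted p = 0.0175) and 3 were lower (Apcdd1, Fzd3 and Daam1). That is 6.67% of them, beside 6.14% of all genes. Leaving out 1 library or day gave 0 to 4 calls in place of 4. Of the 15 other secreted modulators on the list, only Cthrc1 passed the filter, and Dkk1, Dkk4 and Sostdc1 had 0 reads, so Dkk2, Dkk3 and Sfrp2 were, with Cthrc1, the secreted modulators with enough reads to test.

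**Figure D5:**
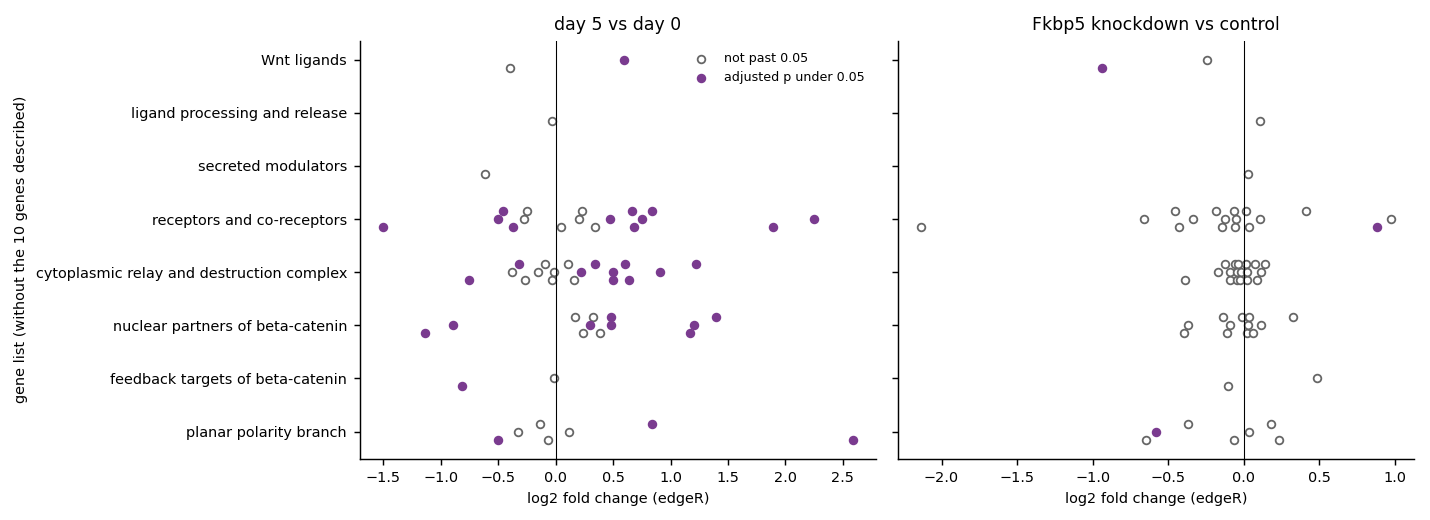
Log2 fold change (horizontal axis) of the other Wnt pathway genes with enough reads to test, by list (vertical axis), at day 5 against day 0 (left) and in the Fkbp5 knockdown against the control (right). Each point is 1 gene, and filled points passed an adjusted p under 0.05. At day 5 against day 0, 34 of 60 are filled, and in the Fkbp5 knockdown 3 of 60.

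Between genotypes few of these genes were called. In the Fkbp5 knockdown against the control 1 was higher and 2 lower (5% of the 60, beside 2.18% of all genes). The receptor Fzd4 stood at 10.5, 24.3 and 16.0 CPM in the Fkbp5 knockdown, against 6.41, 10.7 and 9.92 CPM in the control (log2 0.88, SE 0.18, edgeR adjusted p = 0.0339). The ligand Wnt10a stood at 5.79, 6.59 and 7.90 CPM in the Fkbp5 knockdown, against 10.2, 10.9 and 18.6 CPM in the control (−0.94, SE 0.20, adjusted p = 0.037). Daam2 was lower by −0.58 (SE 0.12, adjusted p = 0.0355). DESeq2 called 0 of the 60. The 3 genes kept their sign in all 18 alternatives but passed in only 4, 4 and 5 of them. Without the day-5 library of the Fkbp5 knockdown, none of the 3 passed (Fzd4 0.96, adjusted p = 0.13; Wnt10a −0.82, 0.217; Daam2 −0.61, 0.168). In the Fkbp4 knockdown against the control edgeR called 0 of 60, with 8 under 0.05 before adjustment (16.5% of all genes were), and DESeq2 and limma voom called 0 each.

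Between the knockdowns, 8 of the 60 genes were called, 3 higher in the Fkbp5 knockdown and 5 lower. That is 13.3% of them, beside 13.4% of all genes (7.16% higher and 6.21% lower), so the count is that of the background. Lgr6 stood at 36.8, 8.17 and 17.3 CPM in the Fkbp5 knockdown, against 16.6, 2.47 and 2.32 CPM in the Fkbp4 knockdown (log2 1.70, SE 0.28, edgeR adjusted p = 0.00461). The receptor Fzd6 stood at 42.6, 42.2 and 28.5 CPM, against 24.9, 16.8 and 16.9 CPM in the Fkbp4 knockdown (0.96, SE 0.14, adjusted p = 0.00288). Wls was also higher (0.39, adjusted p = 0.0445), while Daam2, Wnt10a, Scrib, Fbxw11 and Csnk1e were lower. Lgr6 and Fzd6 held in 16 of 17 alternatives, and Wls, Wnt10a and Csnk1e in 5, 4 and 4. Without the day-5 library of the Fkbp5 knockdown, Lgr6 (1.51, adjusted p = 0.036), Fzd6 (1.04, 0.013) and Daam2 (−0.71, 0.0392) passed and the other 5 did not. The summed fibroblast and adipocyte lists were also higher in Fkbp5 knockdown cells than in Fkbp4 knockdown cells at each day, and their part was not tested. The fibroblast sum was mostly Col3a1. Pdgfrb (139 against 156 CPM) and Thy1 at day 0, and Lum at day 5, were lower in Fkbp5 knockdown cells.

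Sequence shared with other genes was looked up for each member. The share of 31-base words of a member's exons found in other annotated genes was 0% for Wnt9a, Porcn and Dkk3, and at most 14.6%, for Lef1. Exons of Wnt7b, Sfrp2, Axin2 and Lef1 overlap an antisense gene, and whether counting used strand is not given in the sources used here, so reads of the overlap cannot be told apart. The antisense genes themselves held 2, 0, 0 and 5 reads over the 9 libraries.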

How the data were processed

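The files deposited by the authors hold unnormalised read counts for Ensembl genes, 1 file for each of the 9 libraries. Per the submitters' processing notes, CASAVA 1.8, HISAT2 2.0.2, Subread and featureCounts 1.4.6 were used with build mm10. The annotation, the strand setting and the handling of reads with several alignments are not given in the sources used here, and these settings can move reads between overlapping genes. Of 47728 identifiers, 47309 were matched to GENCODE vM21 for symbols and exon lengths. The other 419 held at most 0.0188% of a library's reads.

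Counts were filtered with filterByExpr (12498 genes kept), scaled by TMM and fitted with edgeR 4.0.16 in R 4.3.3, with genotype and day as additive terms, leaving 4 residual degrees of freedom. The biological coefficient of variation was 0.125. Days stand in for replicates within a genotype, so p-values measure the spread around additive day effects and may miss a difference that changes with day. Genes were called at an adjusted p under 0.05. SE values were computed back from the quasi-likelihood F. CPM intervals are exact Poisson 95% intervals, and same-day ratios have exact conditional binomial intervals. Reads lack molecular identifiers, so intervals and floors of 3 counts (0.53 to 0.79 CPM) cover counting error only. In data simulated for the Fkbp5 knockdown against the control (12291 genes), 97% of genes changed by log2 1 and 100% of those changed by log2 2 were recovered, and 6.64% of the genes called were false. The simulated data had no day effect and the same coefficient of variation (0.125) for every gene. Only genes with a mean of at least 5 CPM were changed. These shares are therefore no measure of the power for the members.

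The members and lists were chosen with earlier results of these data known. From the lists, at most 5 called genes per direction with a mean of at least 5 CPM were named. For members with that mean and an SD of at least 0.5 in log2 CPM (prior count 2), the 2 genes nearest in pattern were named. Those of Wnt4 are not reported here. Alternatives were other size factors, DESeq2 1.42.0, limma voom (limma 3.58.1), no filter, other terms, and leaving out each library or day. No sequence of a protein was used here.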

Additional observations from a re-analysis of the deposited data

How the results depend on the processing

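With 1 library per genotype and day and 3932372 to 5568486 reads per library, most members rest on under 100 reads per library, and Sfrp1 on under 10. The labels carry no replicate numbers, and the day term pairs the libraries by day as a block. Without this block of day (no pairing of libraries by day), the Fkbp5 knockdown against the control gave 3 calls, the Fkbp4 knockdown against the control 0, and the Fkbp5 knockdown against the Fkbp4 knockdown 4, and the cause was not tested beyond that construction.

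The counts over all genes moved with the settings. For the Fkbp5 knockdown against the control (272 calls), no filter gave 866, and leaving out a library or day gave 36 to 296. For the Fkbp4 knockdown against the control (135 calls), DESeq2 gave 222, no filter 690 and a fit of the 2 genotypes alone 376, with 4 to 259 when leaving out. For the Fkbp5 knockdown against the Fkbp4 knockdown (1671 calls), DESeq2 gave 1111, with 250 to 2106 when leaving out. At day 5 against day 3 (767 calls), no filter gave 1578 and a fit without the genotype term 127, with 232 to 924 when leaving out. The other day comparisons kept 5627 to 6628 (day 3) and 6309 to 7704 (day 5) calls against day 0. The interactions gave 4 (Fkbp5) and 5 (Fkbp4) calls. Limma voom gave 1 and 2, no filter 107 and 95, and DESeq2 13 for Fkbp4, with 4 to 35 and 5 to 32 when leaving out. The cause was not tested.

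Recomputing the 68 member results under their alternatives gave 1025 values in all. Of these, 933 kept sign and call, 33 lost the call, 13 gained it, 38 changed sign and 8 values without a test moved. No called result changed sign. Ranges when leaving out a library or day, on the log2 scale, were as follows. In the Fkbp5 knockdown against the control they were −0.46 to 0.56 for Wnt4, −0.22 to 0.31 for Wnt9a and −0.034 to 0.39 for Lef1. In the Fkbp4 knockdown against the control they were −0.64 to 0.041 for Wnt4, −0.015 to 0.24 for Porcn, −0.31 to 0.11 for Sfrp2 and −0.0049 to 0.16 for Axin2. In the Fkbp5 knockdown against the Fkbp4 knockdown they were −0.19 to 0.97 for Wnt4 and −0.44 to 0.52 for Dkk2. For day 5 against day 0 they were −0.46 to 0.21 for Dkk3, −0.24 to 0.034 for Sfrp2 and −0.27 to 0.14 for Lef1. For day 5 against day 3 they were −1.12 to 0.12 for Wnt7b, −0.075 to 0.38 for Wnt9a, −0.45 to 0.38 for Dkk2 and −0.039 to 1.02 for Dkk3. In the Fkbp4 interaction they were −0.22 to 0.12 for Porcn, −0.020 to 1.19 for Dkk2 and −0.37 to 0.42 for Lef1, and Porcn also changed sign with other size factors (0.0025). All 90 library CPM values stayed inside their interval when scaled by the raw total.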

Other observations

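Per kilobase of exon, the ratio of Dkk2 to Dkk3 was 16.4, 1.72 and 1.51 at days 0, 3 and 5 in the Fkbp5 knockdown. It was 2.96, 1.07 and 0.675 in the Fkbp4 knockdown and 2.50, 0.308 and 0.185 in the control. Dkk2 mRNA was thus above Dkk3 mRNA at every day in the Fkbp5 knockdown, and at day 0 alone in the control. Dkk3 was picked for its change, so this ratio is a description with no test.

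For 5 members, the genes nearest in pattern over the 9 libraries were looked up among 10894 genes, by the root mean square difference of centred log2 CPM. The nearest to Porcn were Pfkm, the muscle form of phosphofructokinase (0.25), and Fam167a (0.27), beside a median of 1.34 over all candidates. For Wnt9a they were Rflnb (0.23) and Pmepa1 (0.26), beside a median of 0.81. For Dkk2 they were the predicted genes Gm12415 (0.34) and Gm12602 (0.36), beside 1.55. Dkk3 was nearest to Rgcc (0.37) and Rpn2 (0.48), beside 0.97. Wnt7b had no close match, with Dusp4 (0.73) and Nrcam (0.80) nearest, beside 1.81. All 9 libraries share their day structure, so genes that follow differentiation lie near each other by this measure.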
